A study of Mus musculus with 6 samples.

Results

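The genes followed here were 4 homeobox genes of the basal plate, Nkx6-1, Nkx6-2, Nkx2-2 and Nkx2-9, and 3 floor plate genes, Corin, Ferd3l and Spon1, in RNA of dissected mouse midbrains. They are a fixed list of 7 of the 26852 genes in the deposited table, matched from Ensembl identifiers to mouse symbols. They were listed by name, with no threshold on their values, but with earlier results of these data known. Lmx1b cKO embryos (Lmx1b fl/fl;Pitx3-Cre) were compared with control embryos (Lmx1b wt/wt;Pitx3-Cre), all of background strain C57Bl/6 and at E14.5 (E, embryonic day). There were 3 libraries per genotype, each from 2 pooled embryos, and the embryos came from 4 litters. Both groups carry the Pitx3-Cre allele, so neither group shows midbrain with 2 unmodified Pitx3 copies. Cre made from the Pitx3 locus acts in young mesodiencephalic dopaminergic (mdDA) neurons, so the deletion is limited to these neurons within a much larger piece of tissue.

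In the embryonic midbrain the floor plate, the strip of cells at the ventral midline, secretes the signalling protein sonic hedgehog (Shh). Cells beside it read the signal and turn on homeodomain repressors such as Nkx2-2 and the Nkx6 proteins, which divide the basal plate into progenitor domains that give rise to different neurons. In the midbrain the floor plate itself is neurogenic, and mdDA neurons are born from it. Corin is a membrane-bound serine protease used as a marker to sort floor plate cells, Ferd3l is a basic helix-loop-helix repressor of the ventral midline, and Spon1 encodes F-spondin, a secreted matrix protein that guides commissural axons. The 7 genes are therefore mainly genes of progenitors or midline cells and not of the neurons in which Cre is active.

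The values were normalized read counts, which are the reads on a gene divided by the size factor of the library. The deposited table gives their mean per genotype, and the whole read counts of the 3 libraries behind each mean were recovered as described under the processing. Between 20782935 and 25240920 recovered reads per library were available, and within a genotype the letters a, b and c name the replicates by falling size factor, so a letter links no cKO library to a control library. Otx2, En1, En2 and Pax5, which mark midbrain, were all expressed. The midbrain tissue list, which also holds Th and Lmx1b, summed to 9466 to 12011 normalized counts in the cKO and 12242 to 14143 in the control, with En1, En2 and Pax5, 3 of its 6 genes, lower in the cKO at an unadjusted p under 0.05 and none higher. The 5 Hox genes of the hindbrain that were recovered summed to between 0 and 6.34 normalized counts per library. Lmx1b had cKO counts of 1257, 1401 and 1455 and control counts of 1368, 1352 and 1474 after normalization, which overlap, so its total level does not check the labels. The 8 genes of the bone and mesenchyme list summed to 2345, 749 and 14040.0 normalized counts in cKO replicates a, b and c, against 729 to 846 in the controls, so that cKO replicates a and c were above the controls and cKO replicate b lay among them.

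The homeobox members lie apart in the genome (GRCm38, all on the minus strand), Nkx6-1 on chromosome 5 from 101658139 to 101664996, Nkx6-2 on chromosome 7 from 139579376 to 139582797, Nkx2-2 on chromosome 2 from 147177546 to 147194243 and Nkx2-9 on chromosome 12 from 56611389 to 56613284. Since reads of closely related genes can be mixed up, the GENCODE transcripts were searched for shared stretches. No run of 50 bases in the main transcript of Nkx6-1, Nkx6-2, Ferd3l or Spon1 occurs in a transcript of another gene. For Nkx2-2, 11.2% of such runs also lie in Nkx2-2os, the antisense gene at the same locus, and for Corin 1.33% lie in the antisense gene Gm20647. For Nkx2-9, 0.988% lie in transcripts of 517 other genes. Nkx6-1 and Nkx6-2 therefore share no run of this length, nor do Nkx2-2 and Nkx2-9.

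Some members overlap another gene on the opposite strand, and whether the counting used the strand is not given in the sources used here. Nkx6-2 shares 246 of its exon bases (12.9%) with Inpp5a, a phosphatase of inositol signalling, with a cKO count of 965 ± 86.1 (SD, n = 3) and a control count of 971 ± 40.7 (limma, unadjusted p = 0.966). Nkx2-2 shares 278 exon bases (9.67%) with Nkx2-2os, with 13, 0 and 1 reads in the cKO and 1, 2 and 1 in the controls. The antisense gene 6430503K07Rik lies across Nkx2-2 without touching its exons and had 9.37, 12.7 and 6.49 normalized counts in the cKO and 19.5, 17.3 and 11.9 in the control. Corin shares 147 exon bases (2.72%) with Gm20647, which had 1 read in all 6 libraries together. Ferd3l shares 32 exon bases (3.61%) with Gm40383, which is not analysed here.

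The level of each gene was compared per kilobase of its exons, over the 3 control libraries. Spon1 was the most abundant, at 457 ± 86.0 normalized counts per kilobase (SD, n = 3), followed by Nkx2-2 at 285 ± 37.9, Nkx6-1 at 151 ± 34.5 and Nkx6-2 at 121 ± 4.96. Ferd3l had 65.7 ± 13.2, Corin 36.4 ± 11.6 and Nkx2-9 only 3.39 ± 3.07 per kilobase. Every control library of a gene lay above every control library of the next gene in this order, except that Nkx6-1, at 114 to 183, overlapped with Nkx6-2, at 116 to 126. The order of these 2 genes also depends on the length used. For Nkx6-2 all exons hold 1907 bases and the main transcript 1299, while Nkx6-1 has 3138 by either measure. The secreted protein gene thus stood highest per kilobase and the early Shh target Nkx2-9 lowest. In bulk tissue, fewer cells of a type and less RNA per cell cannot be told apart, which holds for each level and difference given here.

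**Figure D1:**
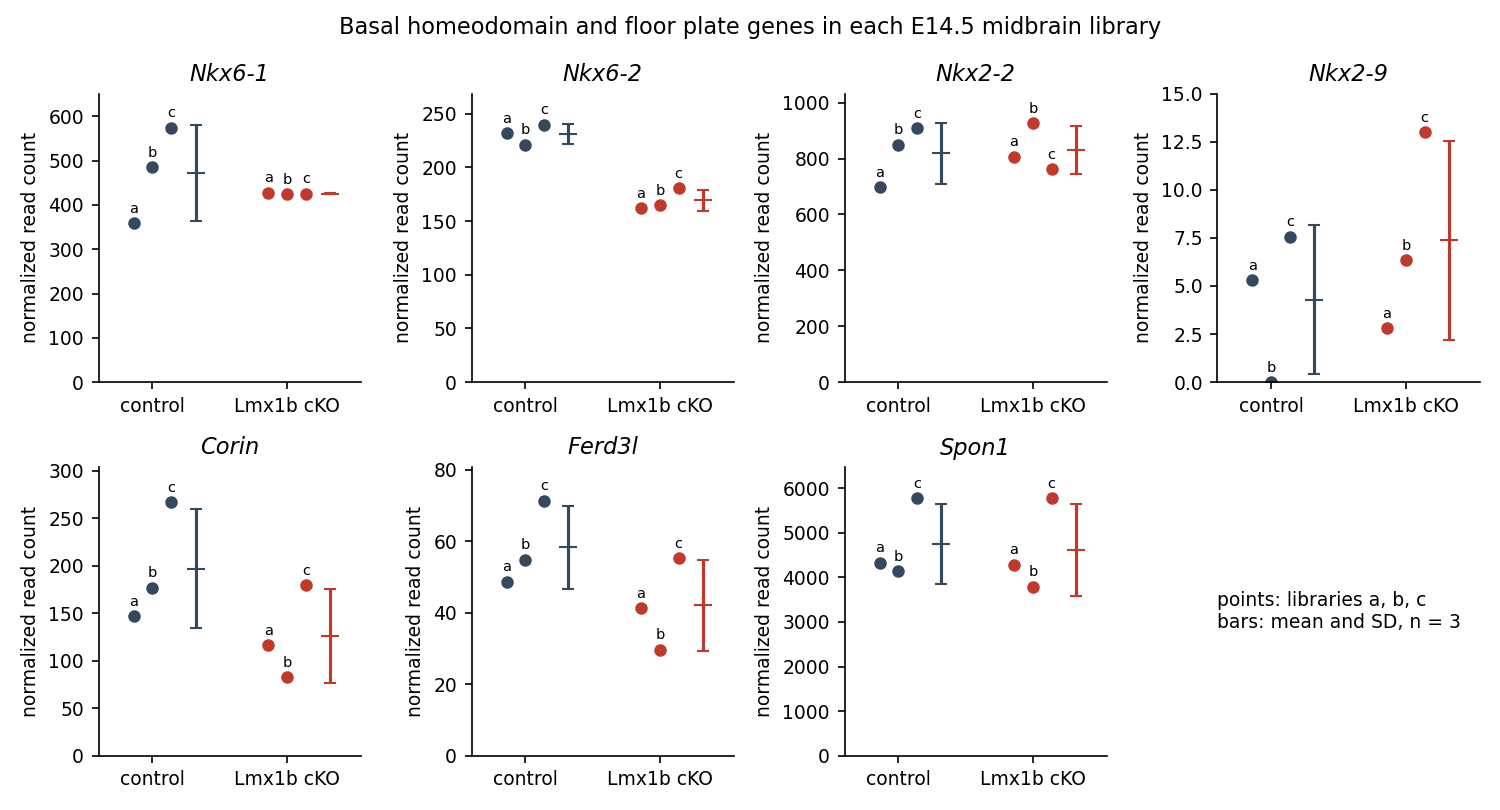
Normalized read counts of the 7 genes (vertical axes, each from 0) in the 3 control and 3 Lmx1b cKO libraries, with letters a, b and c for the replicates and bars for the mean and SD. The 2 groups are apart for Nkx6-2 alone, and the replicates c are the highest of their group for Corin, Ferd3l and Spon1.

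The comparison of the genotypes was made across the 16697 genes whose mean normalized count reached 10, in a limma fit with voom weights. Of these genes 0 (0%) had an adjusted p under 0.05, and 467 had an unadjusted p under 0.05, while limma-trend on log2 counts, with a pseudocount of 1, gave 0 and 477. All members but Nkx2-9 were tested, 6 of 7, and the adjusted p of each was 1.00, so no member passed the test. At an unadjusted p under 0.05, Nkx6-2 and Corin were lower in the cKO and no member was higher, beside 1.61% of all genes tested that were lower at this threshold and 1.19% that were higher. For 1 member, Nkx6-2, the 3 cKO values all lay under the 3 control values, which was so for 3.79% of all genes tested, with 3.87% in the opposite order.

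Nkx6-2, a homeodomain repressor of the Nkx6 family, had normalized counts of 162, 165 and 181 in the cKO, and those of the controls were 232, 221 and 240. All cKO values were thus below all control values, with a gap between the highest cKO library and the lowest control library that was wider than the range within either group. The cKO mean was 73.3% of the control mean, and the log2 fold change was -0.45 (SE 0.141, 95% interval -0.76 to -0.14, limma, unadjusted p = 0.00815, adjusted p = 1.00). By p, this placed Nkx6-2 57th among the genes tested, while the exact permutation test gave p = 0.1 (two-sided), the smallest that 3 libraries against 3 allow. The spread of 5.96% (coefficient of variation) in the cKO and 4.10% in the control was below the 7.78% and 6.48% that counting error alone gives at these read numbers. With each library left out in turn, the log2 fold change stayed between -0.49 and -0.42, with an unadjusted p from 0.0128 to 0.0286.

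Nkx6-1, the relative of Nkx6-2 that is also needed for motor neurons of the brainstem and spinal cord, had cKO counts of 427, 424 and 425 and control counts of 359, 485 and 575. The cKO libraries were nearly equal, with a coefficient of variation of 0.414% where counting error alone gives 4.90%, and they lay inside the range of the controls, which varied by 22.9%. The log2 fold change was -0.11 (SE 0.153, 95% interval -0.44 to 0.23, limma, unadjusted p = 0.499), and the exact permutation test gave p = 0.7. Leaving out control replicate a, the lowest of all 6 libraries, gave -0.30 with an unadjusted p of 0.0239, and leaving out control replicate c, the highest, gave 0.04. Within each library, Nkx6-2 was 37.9%, 38.9% and 42.5% of the Nkx6-1 count in the cKO and 64.5%, 45.5% and 41.7% in the control, which overlap (exact permutation test, p = 0.2). The 2 Nkx6 genes were therefore not shown to differ from each other in their response.

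Nkx2-2, a homeodomain factor that Shh induces in a narrow progenitor domain, had 807, 927 and 761 normalized counts in the cKO and 697, 849 and 908 in the control. Both groups covered much the same range. The log2 fold change was 0.04 (SE 0.111, 95% interval -0.21 to 0.28, limma, unadjusted p = 0.751), so the interval leaves room for a difference of either sign within these bounds. Relative to Nkx2-2 in the same library, Nkx6-2 was 20.1%, 17.8% and 23.8% in the cKO and 33.2%, 26.0% and 26.4% in the control. These ratios did not overlap (exact permutation test, p = 0.1, adjusted p = 0.45 over the 15 pairs of tested members).

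Nkx2-9, a relative of Nkx2-2 that is induced early by Shh, was close to the limit of detection. It had 3, 6 and 12 reads in the cKO and 6, 0 and 7 in the controls, so the groups overlapped, and the count of 0 allows for up to 3 reads at this depth. Its mean normalized counts of 7.38 ± 5.17 (SD, n = 3) and 4.29 ± 3.88 were below the minimum of 10. With the minimum lowered to 1, the log2 fold change was 1.24 with a 95% interval from -0.95 to 3.42 (limma, unadjusted p = 0.245), and a difference was not detectable at this depth.

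Corin (chromosome 5, 72300025 to 72504473, minus strand) had cKO counts of 116, 82.4 and 180 and control counts of 147, 177 and 267, all normalized. It varied most of the tested members, with a 3.24-fold range over the 6 libraries, and cKO replicate c was above control replicates a and b. The log2 fold change was -0.65 (SE 0.283, 95% interval -1.27 to -0.03, limma, unadjusted p = 0.0420, adjusted p = 1.00), and the exact permutation test gave p = 0.3. This unadjusted p was lost when cKO replicate a (0.0889), cKO replicate b (0.199), control replicate b (0.0542) or control replicate c (0.158) was left out, with log2 fold changes from -0.92 to -0.39 over all 6 such fits.

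Ferd3l (chromosome 12, 33928425 to 33929310, plus strand, a single exon) had 41.2, 29.6 and 55.2 normalized counts in the cKO and 48.7, 54.8 and 71.3 in the control. Here too cKO replicate c lay among the controls. The log2 fold change of -0.48 was close in size to those of Nkx6-2 and Corin, but its interval was wide (SE 0.311, 95% interval -1.16 to 0.20, limma, unadjusted p = 0.151). It ran from -0.68 without cKO replicate c to -0.26 without cKO replicate b, with no unadjusted p under 0.05 when any 1 library was left out. Counting error alone gives a coefficient of variation of 15.6% for this gene in the cKO, where 30.5% was measured.

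Spon1 (chromosome 7, 113765998 to 114043370, plus strand) had 4281, 3791 and 5778 normalized counts in the cKO and 4333, 4135 and 5771 in the control. The 2 sets of libraries were nearly the same, with a log2 fold change of -0.04 (SE 0.143, 95% interval -0.35 to 0.27, limma, unadjusted p = 0.768). With the level of the bone and mesenchyme list as a covariate, the log2 fold change of Spon1 was -0.37, with an unadjusted p of 0.0231. The same covariate moved the log2 fold change of Corin to -1.22 (unadjusted p = 0.00753) and that of Ferd3l to -0.92 (unadjusted p = 0.0570), and left that of Nkx6-2 at -0.52 (unadjusted p = 0.0265). In the cKO this list and Spon1 were both highest in replicate c and lowest in replicate b. All 8 genes of the list had an estimate above 0, and their level varied mainly among the cKO libraries. Genotype and this covariate therefore cannot be separated in the fit, and no decrease can be read from the values with the covariate.

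**Figure D2:**
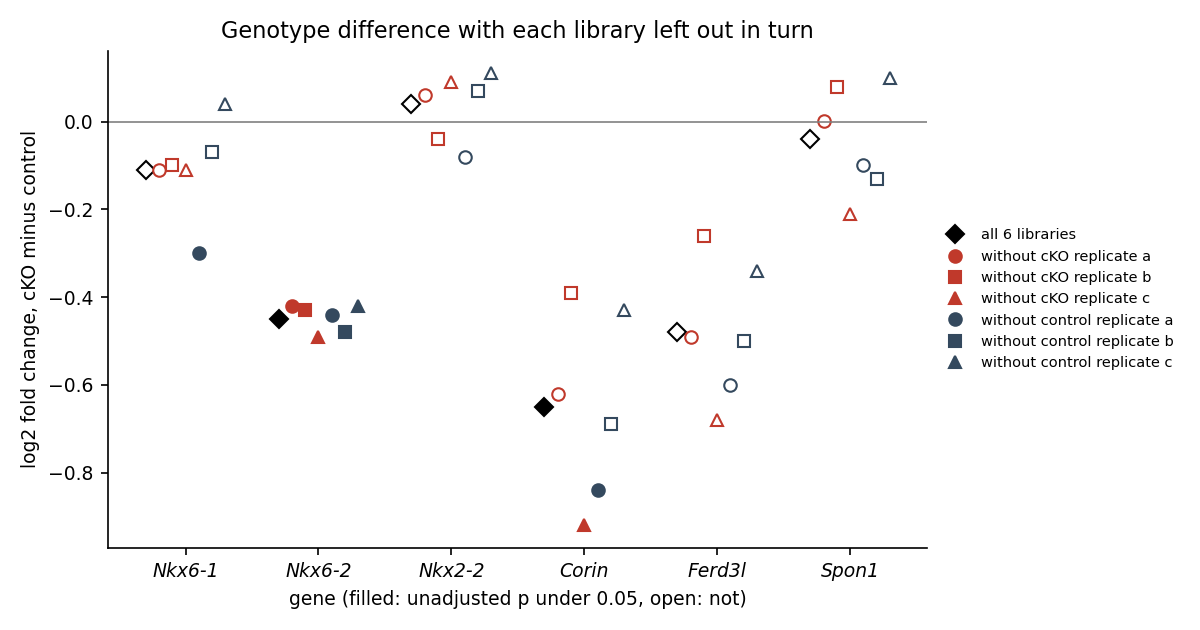
Log2 fold changes (cKO minus control, limma) of the 6 tested genes with all 6 libraries (black diamonds) and with each library left out (red for cKO, blue-grey for control), where a filled symbol has an unadjusted p under 0.05. Nkx6-2 stayed between -0.49 and -0.42, while Corin ran from -0.92 to -0.39 and Spon1 from -0.21 to 0.10.

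Corin and Ferd3l ranked the libraries of each genotype in the same order, and Spon1 did so in the cKO but not in the controls, where it was lowest in replicate b and they were lowest in replicate a. Replicate c was the highest of its group for Corin, Ferd3l and Spon1 in both genotypes, a pattern that 1704 of the 16697 genes tested (10.2%) had. It was shared by 6 of 13 tested genes of the floor plate and mdDA progenitor list, namely Lmx1b, Ntn1, Slit1, Slit2, Sulf1 and Wnt5a, while Wnt1 was lowest in replicate c of both genotypes. Of the 13 Shh pathway genes, 5 (Shh, Foxa1, Foxa2, Ptch1 and Hhip) were highest in replicate c of both genotypes and 1, Gli2, was lowest there. Of 9 tested genes of the alar and roof plate list, 3 were lowest in replicate c of both genotypes, Zic1 and Zic2 among them, and 1, Bmp6, was highest, where 9.37% of all genes tested were lowest. The genes of this pattern are named because their values showed it. Over the 6 libraries, Pearson's r of the log2 counts (pseudocount 1) was 0.99 between Corin and Ferd3l, 0.80 between Corin and Spon1 and 0.78 between Ferd3l and Spon1, while Nkx2-2 had r of -0.07, -0.15 and -0.11 with these 3 genes. These values describe 6 libraries of 2 genotypes, each with its own dissection and depth. The share of floor plate tissue in a dissection was not measured, and its part in these differences was not tested.

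Because Spon1 was highest in the same libraries as the other floor plate genes but was nearly equal between the genotypes, each member was also expressed as a percentage of Spon1 in its own library, a comparison chosen after the values had been seen. Corin was 2.71%, 2.17% and 3.11% of Spon1 in the cKO and 3.39%, 4.27% and 4.62% in the controls. All cKO libraries were then below all controls, with means of 2.67% ± 0.470 and 4.10% ± 0.636 (SD, n = 3). Ferd3l was 0.963%, 0.780% and 0.955% of Spon1 in the cKO and 1.12%, 1.32% and 1.24% in the controls, which also did not overlap. The ratio to Spon1 was lower in every cKO library than in every control library for 144 of 16660 genes (0.864%), and the opposite order was not counted. Since Spon1 was chosen for its course over these same libraries, this share does not measure how rare such a separation is. Corin and Ferd3l, with an r of 0.99 between them, are not 2 separate cases. The ratios of Nkx6-2, Nkx6-1 and Nkx2-2 to Spon1 overlapped between the genotypes.

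Among the 15 pairs of tested members, 3 had ratios that did not overlap, those of Corin and Ferd3l to Spon1 and that of Nkx6-2 to Nkx2-2. Each had the smallest exact permutation p that is possible, 0.1 (two-sided), and an adjusted p of 0.45 over the 15 pairs, so none passed. The log2 difference of the ratio was -0.62 for Corin and -0.45 for Ferd3l against Spon1. With the level of Spon1 as a covariate in the limma fit, the log2 fold change was -0.57 for Corin (unadjusted p = 0.00942), -0.42 for Ferd3l (unadjusted p = 0.163) and -0.44 for Nkx6-2 (unadjusted p = 0.0125). The separation depended on the gene taken as the reference. Against Shh, Corin was 27.3%, 17.2% and 35.9% in the cKO and 31.1%, 37.6% and 37.8% in the controls, which overlap, and its ratios to Foxa2 and Lmx1a overlapped too, as did the ratios of Ferd3l to all 3 of these genes. The ratio of Nkx6-2 to Lmx1a did not overlap, at 15.96%, 17.37% and 14.47% in the cKO and 19.03%, 21.80% and 20.48% in the controls, while its ratios to Shh and Foxa2 did.

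**Figure D3:**
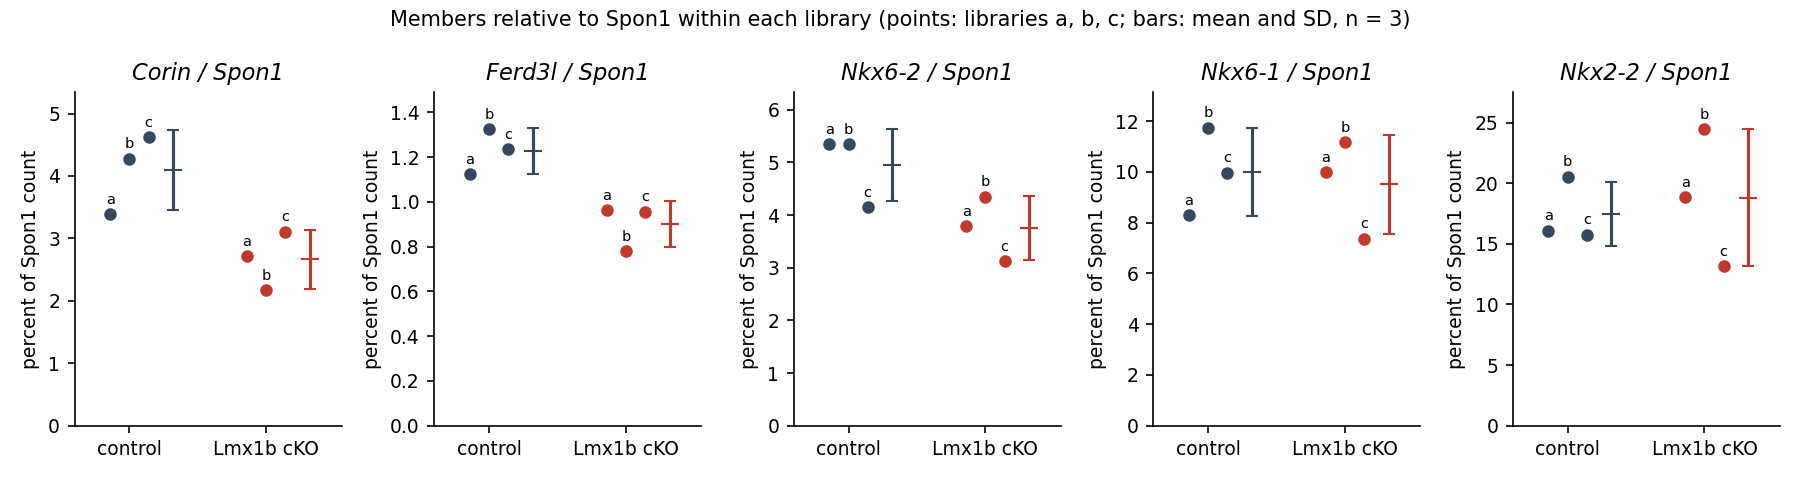
Counts of 5 genes as a percentage of the Spon1 count of the same library (vertical axes, each from 0), for the 3 control and 3 cKO libraries with mean and SD. The cKO libraries lie below the controls for Corin and Ferd3l and overlap with them for Nkx6-2, Nkx6-1 and Nkx2-2.

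The start regions of the 2 genes that varied together most closely, and of Nkx6-2, are shown as the 250 bases before the RefSeq start site on GRCm38.p6, each read in the direction of its gene. Capitals mark a match, on either strand, to one of the motifs searched. For the GLI factors of Shh signalling the letters searched were GACCACCCA. Those of the FOXA factors, to which Foxa2 belongs, were TGTTTAC. A core shared by many homeodomain proteins was searched as TAATTA. The remaining searches were for the general start-site elements, with TATAAA for the box of that name upstream of many regulated genes, and with CCAAT for the other element. No matches overlap in these sequences.
Corin, chr5:72504541-72504790, minus strand: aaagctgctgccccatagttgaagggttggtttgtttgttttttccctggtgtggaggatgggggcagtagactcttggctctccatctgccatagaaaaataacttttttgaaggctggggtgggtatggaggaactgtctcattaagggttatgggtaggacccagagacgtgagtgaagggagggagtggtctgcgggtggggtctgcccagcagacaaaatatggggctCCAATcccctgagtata
Ferd3l, chr12:33928175-33928424, plus strand: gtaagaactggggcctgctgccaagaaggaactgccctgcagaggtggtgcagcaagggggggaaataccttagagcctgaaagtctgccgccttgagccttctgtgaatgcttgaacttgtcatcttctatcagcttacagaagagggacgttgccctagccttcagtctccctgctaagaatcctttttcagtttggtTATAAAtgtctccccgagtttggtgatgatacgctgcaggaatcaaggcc
Nkx6-2, chr7:139582798-139583047, minus strand: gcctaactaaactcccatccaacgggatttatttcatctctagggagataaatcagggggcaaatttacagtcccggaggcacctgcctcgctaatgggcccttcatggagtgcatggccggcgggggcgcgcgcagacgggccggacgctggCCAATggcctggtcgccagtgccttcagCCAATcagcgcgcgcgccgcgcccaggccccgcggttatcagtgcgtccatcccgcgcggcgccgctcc
Corin held the CCAAT element 17 bases before the start, as 37.4% of 32851 promoters do somewhere in the same window of 300 bases. Ferd3l held TATAAA 50 bases before its start (13.6% of promoters), and Nkx6-2 held CCAAT at 69 and 97 bases before it. None of the 6 members with an entry held the GLI (0.253% of promoters), FOXA (3.65%) or homeodomain (5.29%) letters in this window. The promoters differed in their CpG dinucleotides, of which the windows of Nkx6-1, Nkx6-2, Nkx2-2 and Nkx2-9 held 40, 32, 17 and 15, and those of Ferd3l and Corin 6 and 5, beside a median of 7 over all promoters. So all 4 homeobox genes were above this median and both floor plate genes below it. These matches are a description of letters and not of binding.

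Among the genes that send and receive the Shh signal, 13 of 13 were tested, and none had an unadjusted p under 0.05. The estimate was below 0 for 11 and above 0 for 2, with a median log2 fold change of -0.15, where 8355 of 16697 genes tested were below 0. Shh had 425, 479 and 500 normalized counts in the cKO and 472, 471 and 705 in the controls, with a difference of -0.20 on the log2 scale (SE 0.152, 95% interval -0.53 to 0.14). The groups overlapped, and the high control was replicate c, the control library that was also highest for Corin, Ferd3l and Spon1. Foxa2, the forkhead factor that specifies the floor plate, had 483, 604 and 634 in the cKO and 595, 709 and 769 in the control (log2 fold change -0.27, SE 0.127, limma, unadjusted p = 0.0558). The 2 groups of Foxa2 overlapped by 2 cKO libraries that lay above the lowest control.

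The floor plate and mdDA progenitor list had 13 of 13 genes tested, 10 with an estimate below 0 and 3 above, and a median log2 fold change of -0.09. Lmx1a, the relative of Lmx1b that marks the progenitors of mdDA neurons, had 1016, 949 and 1249 in the cKO and 1218, 1014 and 1171 in the control, which overlap (log2 fold change -0.09, unadjusted p = 0.401).

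**Figure D4:**
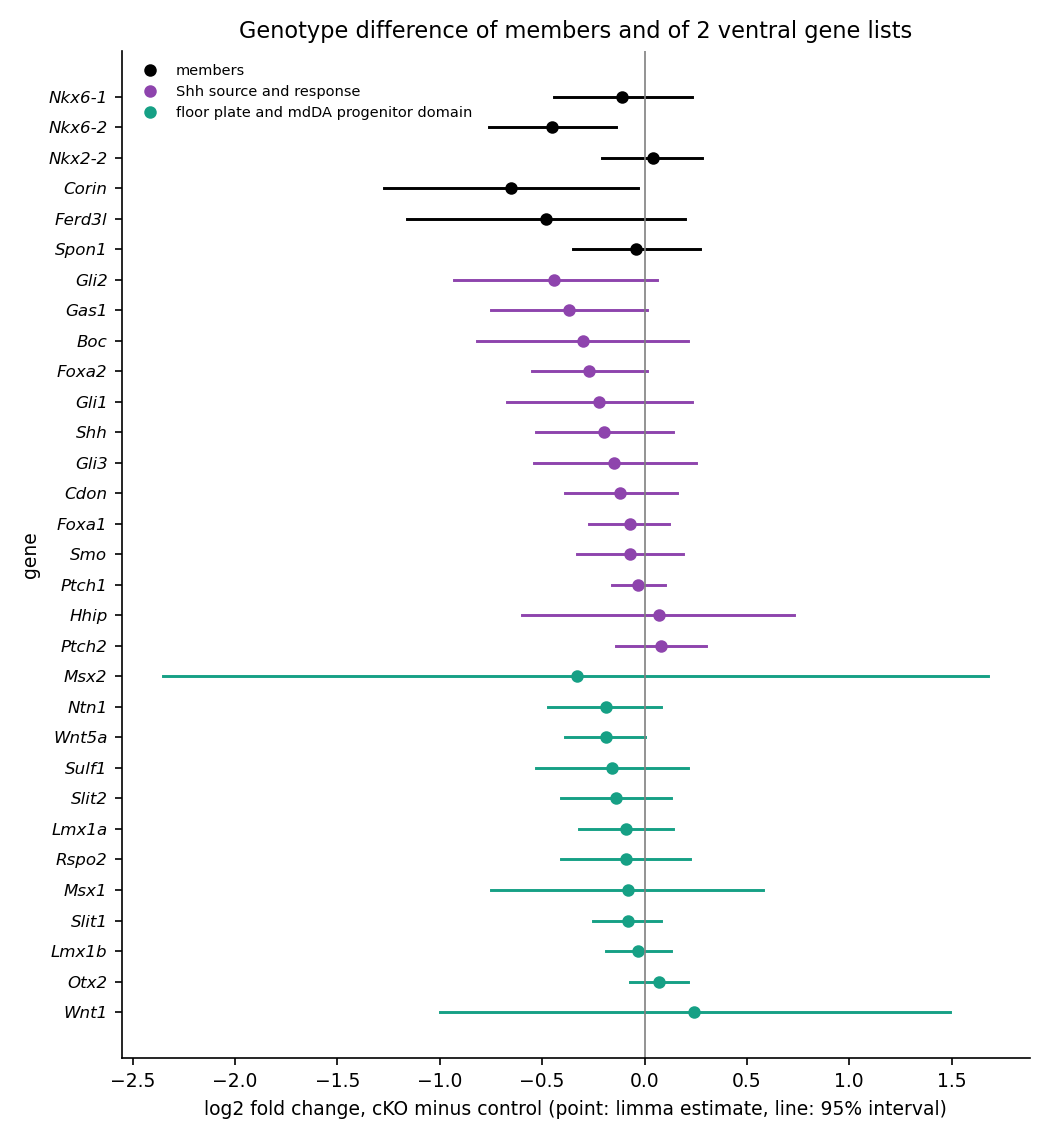
Log2 fold changes (horizontal axis, cKO minus control, limma) with 95% intervals for the 6 tested members, the 13 genes of the Shh list and 12 genes of the floor plate and mdDA progenitor list. Among the genes shown, the interval lies wholly below 0 for Nkx6-2 and Corin and includes 0 for the others, with no adjusted p under 0.05.

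In the basal plate list, 23 of 24 genes were tested, of which 12 had an estimate below 0 and 11 above, with a median of -0.03. An unadjusted p under 0.05 was found for 3 of them. Sim1, a factor of basal progenitors and their neurons, had 964, 1051 and 1114 normalized counts in the cKO and 899, 547 and 903 in the control (log2 fold change 0.45, limma, unadjusted p = 0.0150). Lhx1, a LIM homeobox gene of young neurons, had 4578, 5278 and 4889 against 4348, 4559 and 4371 (log2 fold change 0.15, limma, unadjusted p = 0.0252). Irx5, an Iroquois homeobox gene, had 804, 815 and 894 against 991, 941 and 947 (log2 fold change -0.20, limma, unadjusted p = 0.0236). These 3 genes had groups that did not overlap, higher in the cKO for Sim1 and Lhx1 and lower for Irx5. Of the alar and roof plate list 9 of 11 genes were tested, none with an unadjusted p under 0.05, and the median was 0.00. Of the other Nkx genes, 2 could be tested, Nkx1-1 and Nkx1-2, in addition to Nkx2-1 and Nkx2-4 of the basal plate list, and Nkx2-3 and Nkx6-3 were below the minimum. None of these 4 had an unadjusted p under 0.05, with log2 fold changes of 0.55 for Nkx2-1 (limma, unadjusted p = 0.102) and 0.57 for Nkx2-4 (limma, unadjusted p = 0.0661).

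Progenitor markers were counted beside these genes, since the 7 genes are largely used in progenitors. Of 7 tested radial glia genes, 6 had an estimate below 0, and Slc1a3, the glial glutamate transporter, and Hes5, a Notch target, had an unadjusted p under 0.05 (log2 fold changes -0.21 and -0.33). The radial glia list named 9 genes, of which 7 were recovered, so Vim and Fabp7 are in neither the test nor the sum. The summed level of the recovered radial glia genes was 17058 to 20294 normalized counts in the cKO and 19628 to 21545 in the control, and none of these genes was at 0. Of 10 cycling cell genes, 8 had an estimate below 0 and none an unadjusted p under 0.05, with all 10 highest in control replicate a. With the level of the cycling genes as a covariate, the log2 fold changes of Nkx6-2 and Corin were -0.45 and -0.67 (unadjusted p = 0.0102 and 0.0239). Forebrain GABAergic genes were higher in the cKO at an unadjusted p under 0.05 for 3 of 4 tested, Dlx1, Dlx5 and Dlx6, with sums of 2320 to 3343 normalized counts against 1759 to 2239. Serotonergic genes were lower in the cKO at an unadjusted p under 0.05 for 4 of 6, Slc6a4, Slc22a3, Tph2 and Fev, with sums, which include Lmx1b itself, of 1625 to 2086 against 2036 to 2335. Of 6 mdDA neuron genes, 2, Ddc and Pitx3, were lower in the cKO at an unadjusted p under 0.05, and the groups did not overlap for 3, these and Nr4a2, with sums of 7423 to 7606 against 7334 to 8845. Blood genes were higher in the cKO at an unadjusted p under 0.05 for 2 of 6, with overlapping sums of 10713 to 13173 against 8450 to 12560. The part of these 4 lists, and of the midbrain tissue list, in the values of the 7 genes was not tested.

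For each tested member, the genes with the most similar course over the 6 libraries were listed, at most 3 each, among 16697 genes and by Pearson's r of the log2 counts. Corin and Ferd3l were in each other's list (r = 0.995), and both lists also held Rtf2 and Cfap52 (r from 0.979 to 0.995). Nkx6-2 was most like Ccdc81, Gm13394 and Bche, which encodes butyrylcholinesterase (0.999, 0.993 and 0.985). Nkx6-1 was most like Gm42583, Ccdc157 and Zfp13 (0.991 to 0.988), and Nkx2-2 was most like Nbeal2 and B4galnt4 (0.995 and 0.994). Spon1 was most like Exoc7, Tfrc and Rhog (0.999 to 0.991), where Tfrc is the transferrin receptor. With 6 libraries and this many genes such high values are found for each member, so they describe the libraries only.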

How the data were processed

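RNA of dissected E14.5 midbrains was measured in 3 Lmx1b cKO and 3 control libraries. Paired-end reads were mapped to GRCm38 and counted per gene, and the submitters' processing notes list TopHat 1.0.14, Bowtie2 2.1.0, HTSeq 0.6.1p1 and DESeq 1.10.1. The deposited coverage signal is the mean per genotype of read counts, each scaled by the authors with the size factor of its library. Columns with the authors' own ratios, log2 ratios and p-values were not used. The header of the table gave the genotype of each mean. The 3 rows that name no gene, 31.8% of the mean counts, were left out.

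Whole counts per library were recovered by searching for the whole numbers whose scaled mean gives the deposited value, up to a mean of 10000. This gave a single answer in both groups for 26372 of 26852 genes (98.2%), with 70.0% of the normalized counts on genes, and 3 of 1000 decoy values had an answer. These counts are reconstructed. The size factors differed by at most 0.116% from those recomputed from the counts. Counting error alone was taken as 1 over the square root of the mean read count.

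A limma fit (version 3.58.1, R 4.3.3) took the genes whose mean normalized count reached 10 (voom weights, genotype as the only term, Benjamini-Hochberg adjustment over all genes tested). Single values were compared by exact permutation tests, two-sided. The fit was tested on simulated data. Since dissection and library steps of the replicates are not described, p-values measure the spread between these libraries. Positions came from GENCODE M21 and promoters from RefSeq (6 of 7 members, all but Spon1, matched). Python 3.11.15 with numpy 2.4.6, scipy 1.17.1 and pandas 2.3.3 was used.

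The members and the gene lists were chosen with earlier results of these data known. Named genes were all members, list genes with an unadjusted p under 0.05 (at most 4 per list), genes overlapping a member, the 3 genes most like each member, and Shh, Foxa2 and Lmx1a. Any other gene was named after its values were seen. Some genes and sequences are not reported here.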

Additional observations from a re-analysis of the deposited data

How the results depend on the processing

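Alternatives that left out no library were other minimum means (1 and 50), recomputed size factors, upper-quartile scaling and limma-trend with pseudocounts of 1 and 10. Covariates were also added for cycling cells, for bone and mesenchyme and, chosen after seeing the data, for Spon1. Together they gave 91 comparisons, of which 89 were scored as unchanged. A log2 fold change had to keep its direction and its side of the threshold, while a count could move within a set factor. Counts scored as unchanged did move. The 467 genes with an unadjusted p under 0.05 became 696 and 342 with minimum means of 1 and 50, and 622 with the cycling covariate. Members at this threshold went from 2 to 3 with the bone and mesenchyme covariate. The values scored as changed were a log2 fold change of -0.37 for Spon1 with the bone and mesenchyme covariate (past an unadjusted p of 0.05) and 1 gene, in place of 0, with an adjusted p under 0.05 with the cycling covariate. The bone and mesenchyme covariate, which cannot be separated from the genotype here, also moved Corin to -1.22, Ferd3l to -0.92 and Nkx2-2 to 0.18. These stayed on the same side of the threshold, and the cycling covariate moved Nkx2-2 to 0.02. With each library left out in turn, the log2 fold change ran from -0.92 to -0.39 for Corin, from -0.68 to -0.26 for Ferd3l, from -0.30 to 0.04 for Nkx6-1, from -0.08 to 0.11 for Nkx2-2 and from -0.21 to 0.10 for Spon1, so that the direction of the last 3 turned in some of these fits. Genes with an adjusted p under 0.05 numbered 0 to 4 (4 without control replicate a), and genes with an unadjusted p under 0.05 numbered 333 to 635. The count of members with an unadjusted p under 0.05 ran from 1 to 3 in place of 2, and that of members whose groups do not overlap from 1 to 3 in place of 1 (3, with Corin and Ferd3l, without cKO replicate c, and 2, with Nkx6-1, without control replicate a). The cause was not tested. No paired analysis was possible because no sample number could be given to the libraries behind the group means. With 3 libraries per group, only differences well above the spread between libraries can pass an adjusted threshold, and Nkx2-9 is limited by its few reads.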
